A study of Saccharomyces cerevisiae with 6 samples.

Results

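The arms of chromosome II of budding yeast are described here by their interior: the 1-kb bins at least about 30 kb from either end, without 20 kb on each side of the centromere (placed at 238 kb) and without the 3 bins that hold ORC2. This rule of position took 701 of the 11579 nuclear bins listed in at least 1 library, 185 on the left arm and 516 on the right. Of the 701 bins, 695 passed the filter on G1 counts, which is 6.17% of the 11270 nuclear bins kept. Genomic DNA of W303-1a, a common laboratory strain of Saccharomyces cerevisiae, was sequenced in 6 libraries, 1 for each of 3 strain labels at each of 2 times. The strains are orc2∆N200, named for the loss of the first 200 residues of Orc2, orc2-I194E, named for the replacement of a single residue near the end of that stretch, and WT. Each strain was collected 30 min after release from α-factor, in S phase, and at 0 min, in G1 phase. Per the labels' protocols, cells of all groups were grown in YPG and arrested with α-factor, then moved to YPD with nocodazole, a step that the protocol gives, for all groups alike, as depleting orc2-1. A second α-factor arrest preceded the release, and sodium azide stopped elongation at collection. With 1 library per strain and time there is no replicate, no test and no p-value below, and the intervals given (95%) cover counting error only.

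Replication of a eukaryotic chromosome starts at many origins. In G1 phase the origin recognition complex, of which Orc2 is a subunit, binds origins and loads the Mcm2-7 helicase there, and in S phase origins fire in a typical order, early or late, with forks running outward in both directions. In a population in early S phase, DNA near an origin that fired early has gained copies and DNA far from any such origin has not. A plot of S-phase over G1-phase copy number along the chromosome therefore has hills around early origins and valleys between them. The values below are log2 ratios of a bin's share of the S library to its share of the same strain's G1 library, so 0 is the genome mean, and a hill or a valley is relative to that mean and not an absolute copy number.

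The targeted gene lies between the bins studied. ORC2 (YBR060C, 360652 to 362514 on sacCer3) has its first codons in the 1-kb bin that starts at 362001. Relative to the flanking 20 kb on both sides, this bin held 0.932 in S and 0.909 in G1 under the label orc2∆N200, 1.98 in S and 1.39 in G1 under orc2-I194E, and 1.67 in S and 2.06 in G1 under WT. The libraries labelled orc2∆N200 had about the level of a single copy there, below all others. The S library labelled orc2-I194E was close to the G1 library labelled WT, and the S library labelled WT lay nearer to the G1 library labelled orc2-I194E than the libraries of either label lay to each other. The remaining ORC2 bins paired the same libraries. At 361001, orc2-I194E held 2.67 in S and 1.76 in G1, and WT 1.81 in S and 2.64 in G1. At 360001, orc2-I194E held 1.87 in S and 1.48 in G1, and WT 1.53 in S and 1.73 in G1. For this reason the groups are named by their labels. Values are as labelled unless said otherwise, and beside the comparisons that rest on these labels stand values with the S libraries of orc2-I194E and WT exchanged, or with their G1 libraries exchanged. An exchange leaves the values of orc2∆N200 as they are. Both exchanges form the same pairs of S and G1 libraries and differ only in which pair bears which name. Under the G1 exchange each label keeps its own S library, so values close to the labelled ones are no separate check of the labels. Nuclear counts per library ran from 2916154 to 3076184, and a kept interior bin of chromosome II held a median of 247 to 276 counts. Ratios of 1 G1 library to another hold no replication. Over the interior bins their 21-kb running mean had an SD of 0.037 for orc2∆N200 over WT and 0.033 for orc2-I194E over WT, where counting error alone would give 0.028 for each, so the printed intervals are somewhat too narrow.

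By 30 min the profile labelled WT had deep valleys and separate hills along chromosome II. Those labelled orc2∆N200 and orc2-I194E ran close to each other and were flatter than WT on the right arm. The SD of the 5-kb running mean over the interior bins was 0.127 in orc2∆N200 (0.118 to 0.136), 0.121 in orc2-I194E (0.112 to 0.130) and 0.191 in WT (0.181 to 0.201). As labelled, the intervals overlapped on the left arm. The SDs there were 0.13 (0.12 to 0.15), 0.14 (0.13 to 0.16) and 0.15 (0.13 to 0.17) in the same order. On the right arm they were 0.12 (0.11 to 0.13), 0.11 (0.099 to 0.12) and 0.19 (0.18 to 0.20). Over both arms together the difference from WT was larger on the low side. The 1st percentile of bins was -0.29 in orc2∆N200, -0.28 in orc2-I194E and -0.49 in WT, whereas the 99th was 0.23, 0.26 and 0.25 in the same order. On the right arm alone WT was also higher at the top. The 99th percentile there was 0.21, 0.20 and 0.25, and the 1st was -0.29, -0.29 and -0.50. With the S libraries exchanged, the SD over all interior bins became 0.190 for orc2-I194E and 0.119 for WT. With the G1 libraries exchanged the order stayed as labelled.

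**Figure D1:**
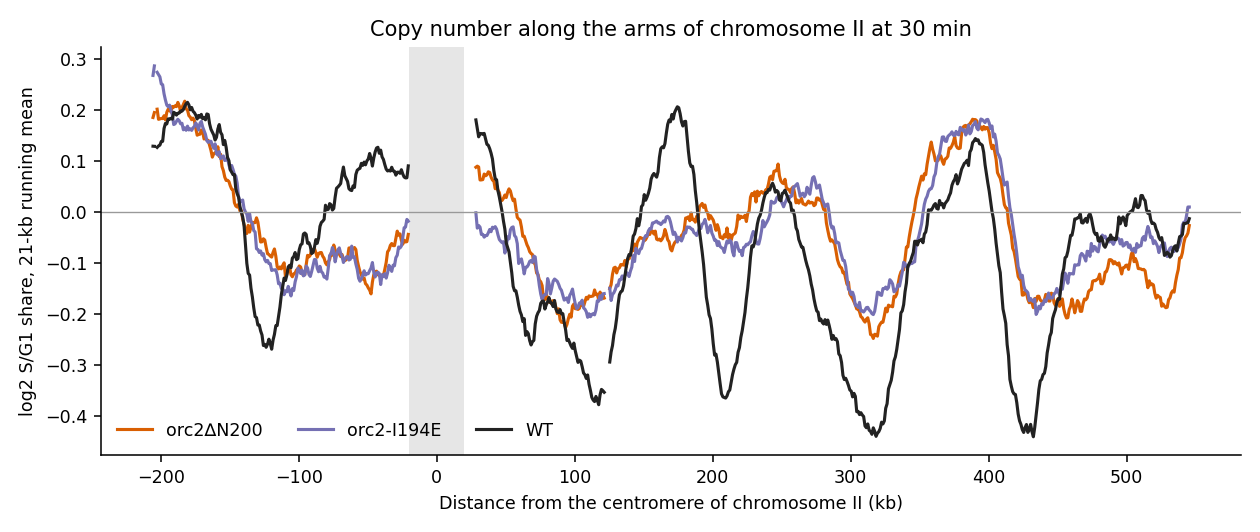
The 21-kb running mean of the S/G1 log2 share ratio is drawn against the distance from the centromere (kb), for orc2∆N200, orc2-I194E and WT, with the centromeric stretch in grey. The WT line reaches -0.44 in 2 valleys of the right arm where the mutant lines stay above -0.25, and the lines of the mutants follow each other along most of both arms.

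The outer part of the left arm was high under all 3 labels. The block 50001 to 70000, with the ribosomal protein gene RPL23A at its centre and the checkpoint kinase gene TEL1 inside it, held 105 CPM per kb (counts scaled to the total of kept counts of the library) in the S library and 92.2 in the G1 library of orc2∆N200. In orc2-I194E it held 105 in S and 93.9 in G1, and in WT 108 in S and 93.5 in G1. Each strain had thus gained copies there relative to the genome mean, by 0.19 in orc2∆N200 (0.14 to 0.24), 0.16 in orc2-I194E (0.11 to 0.21) and 0.21 in WT (0.15 to 0.26). The neighbouring block 30001 to 50000 around BNA4, a gene of NAD synthesis, stood at 0.20, 0.24 and 0.14 in the same order, and that at 70001 to 90000 around the nucleoporin gene NUP170 at 0.12, 0.11 and 0.17. In the BNA4 block the G1 ratio of orc2-I194E to WT was -0.080, and S over S was only 0.019. With the G1 libraries exchanged, the BNA4 block stood at 0.16 in orc2-I194E and 0.22 in WT. In all 3 blocks every interval lay above 0.

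Nearer the centromere on the left arm, WT was high and both mutants were low. The block 190001 to 210000, centred on RRN6, which encodes a transcription factor of RNA polymerase I, held 85.7 CPM per kb in S and 93.1 in G1 of orc2∆N200. It held 83.0 in S and 90.2 in G1 of orc2-I194E, against 101 in S and 95.02 in G1 of WT. WT was the only label with more in S than in G1. The log2 ratio was -0.12 (-0.17 to -0.065) in orc2∆N200, -0.12 (-0.18 to -0.063) in orc2-I194E and 0.092 (0.040 to 0.14) in WT. The block before it, 170001 to 190000 around PIM1, a mitochondrial protease gene, had -0.078, -0.13 and 0.072. The G1 library of orc2-I194E lay 0.076 below that of WT in the RRN6 block, so its S library alone was lower than the S library of WT by more, at -0.29. With the S libraries exchanged, the RRN6 block stood at 0.17 in orc2-I194E and -0.20 in WT, and with the G1 libraries exchanged at -0.20 and 0.17.

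On the right arm a WT hill at MIS1 was not called in the mutants, and the valley beside it was shallower in them. MIS1 (YBR084W, 411054 to 413981), which encodes a mitochondrial enzyme of one-carbon metabolism, lay at the top of a WT hill of 0.21 (0.15 to 0.26, 21-kb running mean). The same position had -0.055 (-0.11 to 0.0014) in orc2∆N200 and -0.058 (-0.11 to -0.0025) in orc2-I194E. The G1 libraries of the mutants stood above that of WT there, by 0.054 in orc2∆N200 and 0.093 in orc2-I194E, and the part of this in the difference was not tested. The block 390001 to 410000 around SEC18, an ATPase gene of membrane fusion, held 78.2 CPM per kb in S and 81.5 in G1 of orc2∆N200, 80.4 in S and 81.5 in G1 of orc2-I194E, and 86.4 in S and 80.0 in G1 of WT. Only WT had gained relative copies in it. The bottom of the next WT valley lay over EXO84 (YBR102C, 445062 to 447323), a gene of the exocyst, at -0.36 (-0.42 to -0.31), where orc2∆N200 had -0.048 and orc2-I194E -0.067. The block 430001 to 450000 around VPS15, a kinase gene of vacuolar sorting, held 88.7 in S and 90.4 in G1 of orc2∆N200 and 90.2 in S and 93.7 in G1 of orc2-I194E, against 77.7 in S and 94.0 in G1 of WT. Between the MIS1 hill and the EXO84 valley, 35 kb apart, the 21-kb mean dropped by 0.57 in WT, while the same step was -0.0064 in orc2∆N200 and 0.0083 in orc2-I194E. Exchanged S libraries gave MIS1 0.11 in orc2-I194E and 0.034 in WT, and EXO84 had -0.37 in orc2-I194E and -0.065 in WT. Exchanged G1 libraries gave MIS1 0.034 in orc2-I194E and 0.11 in WT, and EXO84 had -0.065 in orc2-I194E and -0.37 in WT.

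**Figure D2:**
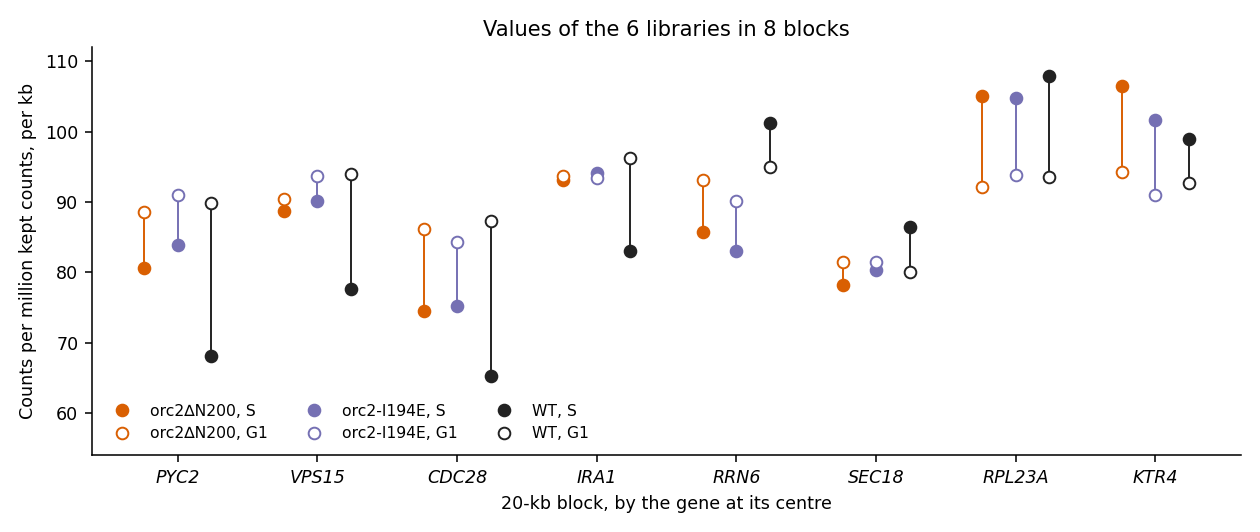
CPM per kb are shown for the 6 libraries in 8 blocks of 20 kb, each named by the gene at its centre, with S filled, G1 open and a line joining the libraries of a strain. The vertical axis does not start at 0. In the PYC2, VPS15, CDC28 and IRA1 blocks the WT line is the longest and runs down to the S library, and in the RRN6 block the S point lies above the G1 point in WT only.

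The deepest WT valleys lay farther out, at AMN1 and YBR225W. AMN1 (YBR158W, 556549 to 558198), which encodes an antagonist of mitotic exit, and YBR225W (670627 to 673329), for which no role is given here, were each at -0.44 in WT. The values over AMN1 were -0.24 in orc2∆N200 and -0.18 in orc2-I194E, and over YBR225W -0.19 and -0.18. Both mutants were low at these positions, though less so than WT. Their called valleys lay 2 kb from the AMN1 bottom in both mutants, and from the YBR225W bottom 24 kb in orc2∆N200 and 2 kb in orc2-I194E. The block 550001 to 570000 around CDC28, the gene of the main cyclin-dependent kinase, held 74.5 CPM per kb in S and 86.2 in G1 of orc2∆N200, 75.3 in S and 84.3 in G1 of orc2-I194E, and 65.3 in S and 87.3 in G1 of WT. In the block 650001 to 670000 around PYC2, a pyruvate carboxylase gene, the values were 80.7 in S and 88.6 in G1 of orc2∆N200, 83.9 in S and 90.9 in G1 of orc2-I194E, and 68.2 in S and 89.9 in G1 of WT. All 3 strains had less in S than in G1 in these 2 blocks, and the difference was largest under the WT label. With exchanged S libraries the largest difference was under orc2-I194E instead, where the CDC28 block stood at -0.37 and the PYC2 block at -0.42, against -0.21 and -0.10 in WT. It was under WT with the G1 libraries exchanged, at -0.37 and -0.42, against -0.21 and -0.10 in orc2-I194E.

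Between these valleys stood a hill that all labels shared. MCM7 (YBR202W, 625772 to 628309), which encodes a subunit of the helicase that the origin recognition complex loads, lay at the top of a WT hill of 0.14 (0.093 to 0.20). The same position had 0.18 (0.13 to 0.23) in orc2∆N200 and 0.18 (0.13 to 0.23) in orc2-I194E. The called top was 2 kb closer to the centromere in orc2∆N200, at 626001, and in orc2-I194E it was at 632001, over the lipid hydrolase gene LDH1. On the outer flank of this hill the mutants stood higher than WT. The block 630001 to 650000 around the urea amidolyase gene DUR12 had 0.13 in orc2∆N200 and 0.17 in orc2-I194E, against 0.023 (-0.033 to 0.079) in WT. This block had, with the S libraries exchanged, 0.035 in orc2-I194E and 0.16 in WT, and MCM7 had 0.13 in orc2-I194E and 0.19 in WT. A lower WT hill over GRS1, a glycyl-tRNA synthetase gene, stood at 0.064 in orc2∆N200, 0.019 in orc2-I194E and 0.057 in WT, with intervals that overlapped.

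Over the whole interior the 21-kb profile, taken at a prominence limit of 0.2, had 2 hills in orc2∆N200, 2 in orc2-I194E and 3 in WT, and 4, 4 and 5 valleys in the same order. A fixed prominence passes fewer hills in a flatter profile. At a prominence limit of 0.1, WT had 5 hills, among them 1 over TEL1 at 57001 with 0.20 in orc2∆N200, 0.17 in orc2-I194E and 0.22 in WT. The only WT valley of the left arm lay over TOD6, a repressor gene of ribosome biogenesis, with -0.088, -0.11 and -0.27 in the same order. At the 3 WT hills the mean was 0.064 (0.032 to 0.095) in orc2∆N200, 0.046 (0.015 to 0.078) in orc2-I194E and 0.14 (0.10 to 0.17) in WT. At the 5 WT valleys it was -0.15 (-0.17 to -0.12), -0.14 (-0.17 to -0.12) and -0.38 (-0.40 to -0.35). These sites were picked on the WT profile, which favours high WT hills and low WT valleys, so the differences describe them and support nothing more. The valleys were, as labelled, higher than in WT in both mutants at all 5 sites, while at hills orc2∆N200 was lower than WT at 1 of 3 and orc2-I194E at 2 of 3. With the S libraries exchanged, orc2-I194E had -0.25 over TOD6, -0.38 over UBP14, -0.37 over EXO84, -0.39 over AMN1 and -0.42 over YBR225W. WT then had -0.13, -0.168, -0.065, -0.22 and -0.19. The unchanged orc2∆N200 was below that WT over UBP14 (-0.172) and AMN1 (-0.24) and above it at the others. Exchanged G1 libraries made orc2-I194E and WT trade these values. The WT profile dropped or climbed by 0.42 to 0.58 between neighbouring hills and valleys, over 34 to 75 kb. The same 6 steps measured -0.0064 to 0.42 in orc2∆N200 and 0.0083 to 0.36 in orc2-I194E, each smaller than in WT as labelled. The steps were not measured with libraries exchanged.

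Some valleys and hills belonged, as labelled, to the mutant profiles. In orc2∆N200 a valley of -0.16 lay over PEP1, a vacuolar sorting receptor gene of the left arm at 190001, where orc2-I194E had -0.11 and WT 0.11. With the S libraries exchanged, WT was low at PEP1 as well, at -0.17, and orc2-I194E stood at 0.17. With the G1 libraries exchanged, WT had 0.17 and orc2-I194E -0.17. Another orc2∆N200 valley lay over the splicing helicase gene PRP5 at 694001, at -0.21 in orc2∆N200, -0.13 in orc2-I194E and -0.087 in WT. The G1 library of orc2∆N200 stood 0.089 above that of WT at this position, and its part in the valley was not tested. In orc2-I194E a hill of 0.070 lay over MEC1, a checkpoint kinase gene, at 511001, where orc2∆N200 had 0.013 and WT -0.17. The 5-kb mean at this position was higher in orc2∆N200, with 0.093, than in orc2-I194E, with 0.038, against -0.15 in WT. The G1 library of orc2-I194E was lower than that of WT at this position by 0.11, and its part in the hill was not tested. With either pair of libraries exchanged, orc2-I194E was below 0 there, at -0.059 (S) and -0.041 (G1). The orc2∆N200 hill closest to it lay over TFC1, a gene of transcription factor TFIIIC, at 485001, with 0.094 in orc2∆N200, 0.031 in orc2-I194E and 0.040 in WT.

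To compare the strains at places that no profile had chosen, the interior was divided into 35 blocks of 20 kb by position, holding 682 of the 695 kept bins. In orc2∆N200, 9 blocks stood at least 0.15 above WT and 4 at least 0.15 below. The same blocks on the interiors of all chromosomes, 517 in all, passed these limits in 13.3% and 11.6%, so the share of higher blocks, 25.7%, was above the background and that of lower blocks, 11.4%, near it. In orc2-I194E, 6 blocks were higher, which is 17.1% against a background of 15.1%, and 3 were lower, which is 8.57% against 15.7%. All 6 blocks higher in orc2-I194E were among the 9 of orc2∆N200, and both comparisons share the WT libraries. Of the lower blocks, 4 in orc2∆N200 and 3 in orc2-I194E, 2 were shared. Such overlap was not counted over all interiors. None of the 35 blocks passed 0.15 in the ratios of G1 libraries, in either direction, where the background was 0%. With the S libraries exchanged, 0 blocks were higher and 0 lower in orc2∆N200, and in orc2-I194E 2 were higher and 5 lower. With the G1 libraries exchanged, 2 blocks were lower in orc2∆N200, and the other counts stayed within 1.5 times their labelled values.

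The blocks with the largest excess over WT lay in the valleys of the right arm. The valleys are low points of the same WT profile that is subtracted, which favours such a match, so it is only described. The PYC2 block led in both mutants, by 0.26 (0.18 to 0.35) in orc2∆N200 and 0.28 (0.20 to 0.37) in orc2-I194E. It was followed in orc2∆N200 by VPS15 (0.25), the block of the mannosyltransferase gene ALG1 (0.21), CDC28 (0.21) and that of IRA1, a regulator of Ras (0.21). In orc2-I194E the order was CDC28 (0.25), IRA1 (0.22), VPS15 (0.22) and the arabinose dehydrogenase gene ARA1 (0.21). Among the blocks below WT, RRN6 led with -0.21 (-0.29 to -0.14) in orc2∆N200 and -0.21 (-0.29 to -0.13) in orc2-I194E. In orc2∆N200 it was followed by ERT1 (-0.18), SEC18 (-0.17), PIM1 (-0.15) and IST2 (-0.14), and in orc2-I194E by PIM1 (-0.20), IST2 (-0.17), SEC18 (-0.13) and HEK2 (-0.13). In the block of ERT1, a regulator of carbon source genes, the G1 library of orc2∆N200 stood 0.11 above that of WT, the widest G1 difference of the 35, and S over S was only -0.064. These differences did not hold with the S libraries exchanged: the PYC2 block was -0.034 in orc2∆N200 and -0.32 in orc2-I194E relative to WT, and the RRN6 block 0.075 and 0.36. They kept their direction with the G1 libraries exchanged, with 0.28 and 0.32 in the PYC2 block and -0.29 and -0.36 in the RRN6 block. The PIM1 block was the lower one nearest to the limit in orc2∆N200, at -0.15, and IST2 the nearest outside it.

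**Figure D3:**
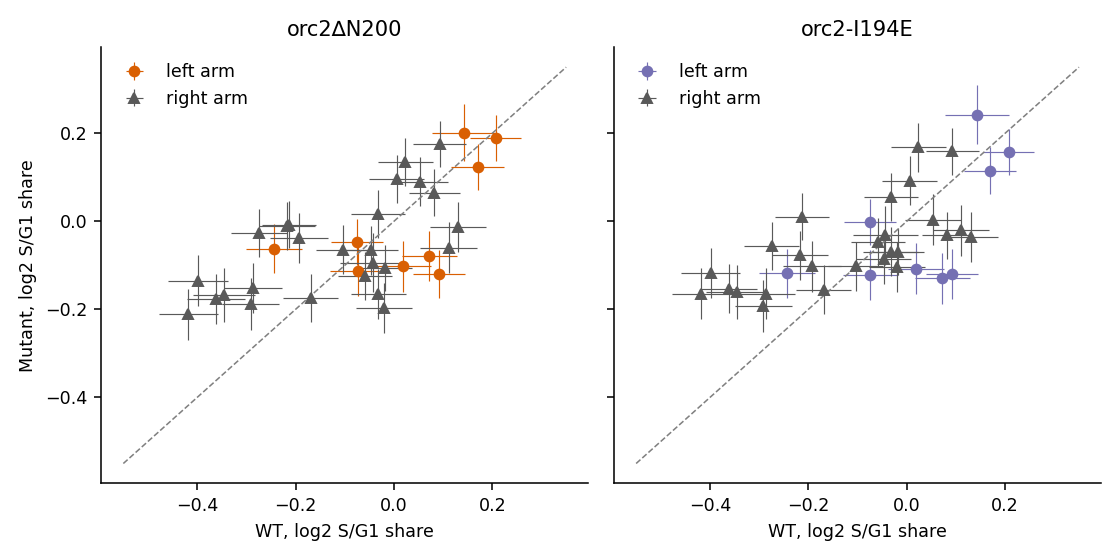
Each of the 35 blocks is a point, with the S/G1 log2 share ratio in WT on the horizontal axis and in orc2∆N200 (left panel) or orc2-I194E (right panel) on the vertical axis. Bars are 95% counting intervals, coloured circles the left arm, grey triangles the right arm and the dashed line equality. The blocks lowest in WT lie above the line in both panels, and the lowest block is at -0.21 in orc2∆N200, -0.19 in orc2-I194E and -0.42 in WT.

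Longer stretches were outlined where the 21-kb running mean of the difference passed 0.15 for at least 10 kb. In orc2∆N200 there were 6 stretches above WT with 167 kb in all and 3 below with 55 kb. In orc2-I194E there were 4 above with 132 kb and 3 below with 60 kb. Of the 701 bins, 168 were above the limit in orc2∆N200 and 147 in orc2-I194E, where 14% and 16.5% of all interior bins were. Below it were 61 bins (8.70%) in orc2∆N200 and 65 (9.27%) in orc2-I194E, where 10.3% and 14.9% of all interior bins were. The longest stretch ran from 509001 to 567000 in orc2∆N200, with 27 whole genes and YSW1 at its middle, and from 506001 to 569000 in orc2-I194E, with 29 whole genes and RTC2 at its middle. Over the first of these, summed counts gave -0.12 in orc2∆N200 and -0.32 in WT, and over the second -0.081 in orc2-I194E and -0.32 in WT. A stretch of 35 kb from 642001 around PYC2 in orc2∆N200 and from 640001 around YBP1 in orc2-I194E stood 0.24 (0.18 to 0.30) and 0.27 (0.21 to 0.33) above WT. The largest single excess in it lay at 654001 over HPC2, a gene of the HIR histone regulator complex. One of 30 kb around SIF2, a subunit gene of the Set3 deacetylase complex, stood 0.26 above WT in orc2∆N200. The only stretch below WT of over 25 kb was that of orc2-I194E from 179001 to 210000, with ACH1 at its middle and -0.13 in orc2-I194E against 0.096 in WT. Exchanging the S libraries left no stretch in either direction in orc2∆N200 and 1 above and 4 below WT in orc2-I194E. Exchanging the G1 libraries left 6 above and 3 below in orc2∆N200, and 4 above and 1 below in orc2-I194E.

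**Figure D4:**
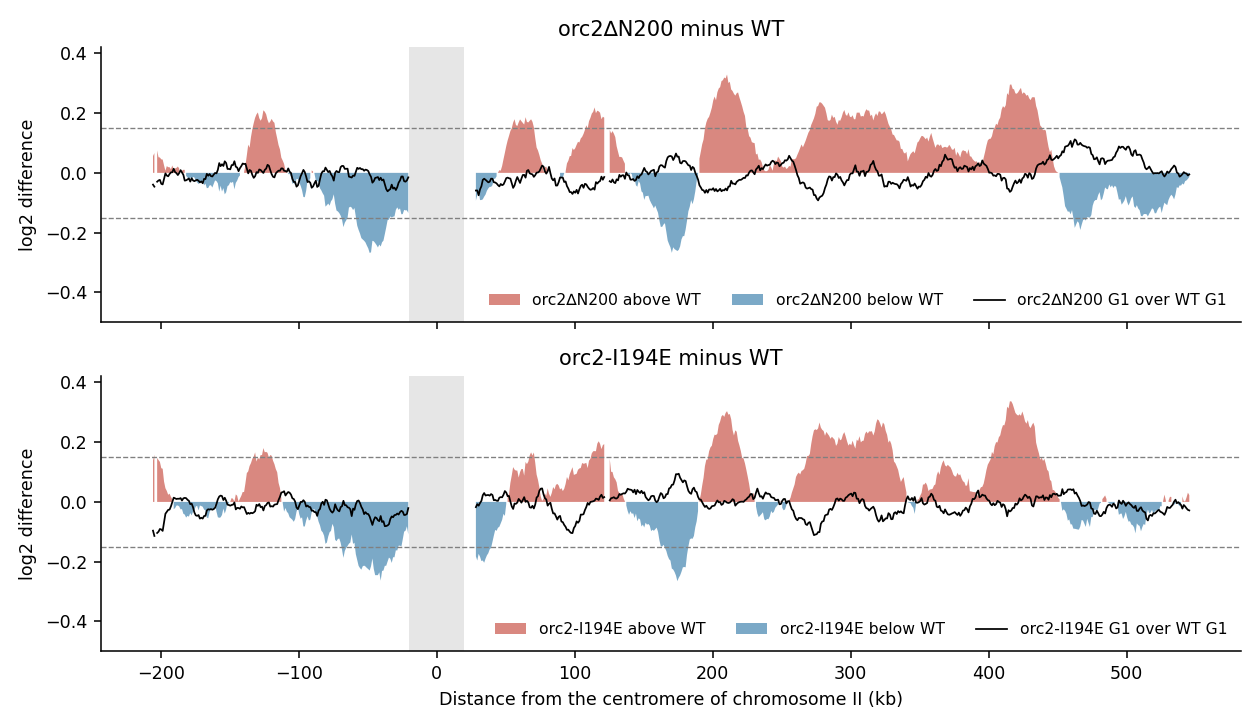
The 21-kb running mean of orc2∆N200 minus WT (top) and orc2-I194E minus WT (bottom) is drawn against the distance from the centromere (kb), red above 0 and blue below, with the ratio of the G1 libraries as a black line and dashed lines at 0.15 and -0.15. The red stretches of the right arm reach 0.33 in orc2∆N200 and 0.34 in orc2-I194E, and the black lines stay between -0.12 and 0.12.

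The flanks of ORC2 belonged to a WT valley even without the bins of the gene. Over the 18 bins outside ORC2 in the 21 kb that start at 348001, the level was -0.16 (-0.22 to -0.10) in orc2∆N200, -0.16 (-0.22 to -0.10) in orc2-I194E and -0.35 (-0.41 to -0.29) in WT. With the 3 ORC2 bins added, it became -0.15 in orc2∆N200, -0.049 in orc2-I194E and -0.41 in WT. The valley bottom at UBP14, a ubiquitin protease gene at 353672 to 356017, had -0.17, -0.17 and -0.38 with the ORC2 bins left out of the running mean. The 18 bins stood, with the S libraries exchanged, at -0.36 in orc2-I194E and -0.15 in WT, and with the G1 libraries exchanged at -0.15 and -0.36.

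The left arm had gained more than the right under all 3 labels, and most under WT. Summed over 183 kept bins, the left arm stood at -0.0040 (-0.022 to 0.014) in orc2∆N200, -0.012 (-0.030 to 0.0066) in orc2-I194E and 0.038 (0.020 to 0.056) in WT. The right arm, with 512 kept bins, stood at -0.054 (-0.065 to -0.043), -0.052 (-0.063 to -0.041) and -0.10 (-0.12 to -0.094). The left minus the right arm was 0.050 (0.029 to 0.071) in orc2∆N200, 0.041 (0.019 to 0.062) in orc2-I194E and 0.14 (0.12 to 0.16) in WT. The difference between arms of the G1 libraries relative to WT was -0.0072 for orc2∆N200 and -0.015 for orc2-I194E. Exchanging the S libraries gave 0.158 for orc2-I194E and 0.0255 for WT. Exchanging the G1 libraries gave 0.0255 for orc2-I194E and 0.158 for WT.

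**Figure D5:**
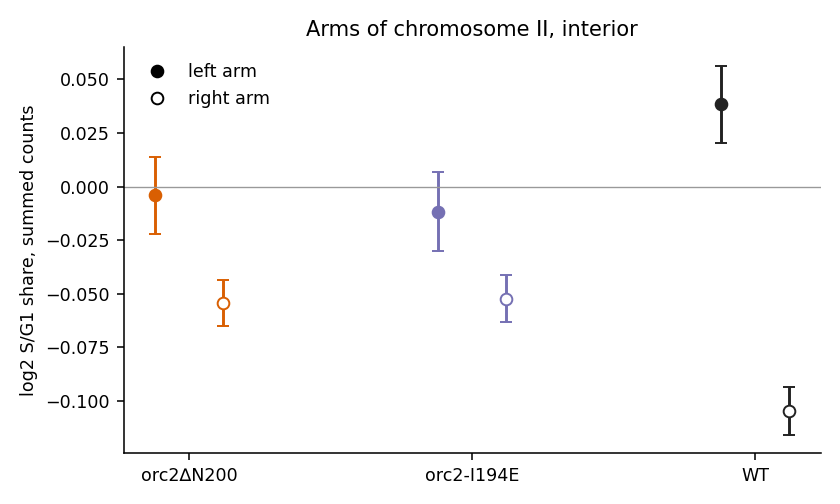
The S/G1 log2 share ratio of summed counts is shown for the left arm (filled) and the right arm (open) of orc2∆N200, orc2-I194E and WT, with 95% counting intervals. The right arm is below the left in each strain, and the gap is widest in WT, at 0.038 against -0.10.

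As labelled, the mutant profiles lay close to each other. Of 35 blocks, none differed by 0.15 or more between orc2∆N200 and orc2-I194E in either direction, where the background was 0.58% for orc2∆N200 higher and 1.35% for lower. This did not hold with the S libraries exchanged: 9 blocks were then at least 0.15 higher in orc2∆N200 than in orc2-I194E and 2 lower, with differences of -0.29 to 0.28. Under the G1 exchange, 0 were higher and 0 lower. As labelled, the counting interval of the difference excluded 0 at 4 of 35 blocks, 2 higher in orc2∆N200 and 2 lower. Such blocks were not counted over all interiors. Among 35 intervals, which are somewhat too narrow, some can exclude 0 by counting error alone. The 4 blocks are therefore described here and not taken as differences between the mutants. The higher ones were at 270001 to 290000, with 0.065 in orc2∆N200 and -0.032 in orc2-I194E, and at the splicing gene MUD1, with 0.090 and 0.0036. The lower ones were ERT1, with -0.20 and -0.10, and the block of the phosphatase gene PPS1, with -0.17 and -0.069. In the ERT1 block orc2∆N200 and orc2-I194E held 79.3 and 79.9 CPM per kb in S, and 90.9 and 85.9 in G1. The part of G1 in this difference was not tested. Over 701 bins the 21-kb profiles of orc2∆N200 and orc2-I194E had a Pearson r of 0.91, each with r of 0.62 and 0.63 to WT, in that order. Under the S exchange, r was 0.61 between the mutants and 0.92 between orc2∆N200 and WT. Neighbouring bins share their windows, so these describe the profiles and are not counts of independent points.

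Genes of DNA replication, repair, checkpoints and chromatin on chromosome II were looked at as a list of 24, all inside the interior bins, over the 5 kb at the centre of each gene. In orc2∆N200, 7 stood at least 0.15 above WT and 1 below, where 18.1% and 15.5% of all 5-kb interior windows did. In orc2-I194E, 6 were above and 2 below, against 19.5% and 19.2%. On the chromosome II interior itself, 25.2% of windows were above and 11.3% below in orc2∆N200, and 25.04% and 13.4% in orc2-I194E. The medians of the list were 0.010 in orc2∆N200 and 0.032 in orc2-I194E, beside 0.027 and 0.024 over the chromosome II interior and -0.0026 and -0.0021 over all interiors. The counts of the list were thus near those of its own chromosome. With the S libraries exchanged, 2 genes were above and 1 below in orc2∆N200, and 6 above and 3 below in orc2-I194E. With the G1 libraries exchanged, 5 were above and 6 below in orc2∆N200, and 3 above and 6 below in orc2-I194E. Among the replication genes themselves, MCM7 held 550 CPM in S and 483 in G1 of orc2∆N200, 528 and 475 in orc2-I194E, and 506 and 456 in WT, and all 3 had gained. POL12, a subunit gene of DNA polymerase α, had -0.056, -0.097 and -0.061 in orc2∆N200, orc2-I194E and WT. RFC5, a clamp loader gene, and POL30, which encodes the sliding clamp PCNA, lay between -0.0054 and 0.067 under all labels. DPB3, a subunit gene of DNA polymerase ε, had -0.17, -0.0060 and -0.044, and RIF1, a regulator of origin timing, -0.14, -0.047 and 0.0071, each with an interval of mutant minus WT that held 0. The checkpoint kinase gene TEL1 was high in all, at 0.18, 0.12 and 0.23, whereas MEC1 had 0.076, 0.00050 and -0.22. CDC28 and MMS4, a gene of a structure-selective nuclease, were low in WT at -0.50 and -0.40. CDC28 had -0.29 in orc2∆N200 and -0.10 in orc2-I194E, and MMS4 -0.061 and -0.092. SHE1, a microtubule protein gene, went the other way, with -0.24 (-0.35 to -0.13) in orc2∆N200 and -0.13 (-0.25 to -0.021) in orc2-I194E, against 0.19 (0.085 to 0.30) in WT. SHE1 had, with the S libraries exchanged, 0.14 in orc2-I194E and -0.079 in WT. MEC1 then had -0.12 and -0.094, CDC28 -0.38 and -0.23, and MMS4 -0.41 and -0.086, in the same order. With the G1 libraries exchanged, orc2-I194E and WT traded these values. MEC1 was thus below 0 under both of these labels with either exchange.

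Set beside the interiors of the other 15 chromosomes, with the libraries as labelled, chromosome II had the highest SD of the WT profile, 0.191 against 0.115 to 0.186. Its SD was within the range of the others in orc2∆N200, 0.127 against 0.0780 to 0.15, and in orc2-I194E, 0.121 against 0.0885 to 0.180. The ratio of SDs to WT was 0.664 in orc2∆N200 (others 0.60 to 1.11) and 0.633 in orc2-I194E (others 0.638 to 1.48). Its mean level was -0.041 in orc2∆N200, -0.042 in orc2-I194E and -0.066 in WT. The level was higher on 15 of the other chromosomes in orc2∆N200, on 12 in orc2-I194E and on 14 in WT. No test of these differences was possible with single libraries.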

How the data were processed

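Genomic DNA of 6 libraries, 1 per strain and time, was sequenced on a DNBseq platform, per the labels' protocols. The deposited files hold whole-number counts per 1-kb bin, with no scaling, and bins without counts are not listed. The build sacCer3 and the tools R 4.3.0, bedtools 2.31.0, Picard 2.27.5, SAMtools 1.18 and Bowtie2 2.5.3 are listed, without roles, per the submitters' processing notes. Filters, the treatment of PCR duplicates and the counting unit (read or fragment) are not given in the sources used here.

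The rest was computed with SciPy 1.17.1, pandas 2.3.3 and numpy 2.4.6 in Python 3.11.15, and drawn with matplotlib 3.10.9. A bin was kept if it had counts in all libraries, lay outside the rDNA (451001 to 490000 of chromosome XII) and ORC2, and had G1 counts of 0.3 to 3 times the library median. Shares are of all kept counts. Running means needed a share of 0.6 of their bins, and blocks at least 10 kept bins. Intervals come from Poisson variances of log2 sums. Hills and valleys are local extremes of the 21-kb mean over the whole chromosome. Genes come from RefSeq assembly R64. Interiors of other chromosomes leave out 30 kb at ends and 20 kb on each side of centromeres. Named genes lie at the centre of WT hills and valleys, of mutant hills, of the 5 blocks farthest above and below WT, and of stretches over 25 kb, or are ORC2 or on the list. Others were named after their values were seen. Members, lists and limits were chosen with earlier results of these data known. Steps were tested on simulated data. No sequence is shown, since no genome was used.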

Additional observations from a re-analysis of the deposited data

Results flagged for a closer look

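In 3 blocks the counting intervals of the S/G1 log2 share ratio lay on opposite sides of 0 in a mutant and in WT, which singled them out. The difference was not tested, as each group had 1 library. In the PIM1 block (170001 to 190000) orc2∆N200 had -0.0783 and orc2-I194E -0.130, against 0.072 in WT. In the RRN6 block (190001 to 210000) orc2∆N200 had -0.120 and orc2-I194E -0.119, against 0.092 in WT. In the SEC18 block (390001 to 410000) orc2∆N200 had -0.0601, against 0.11 in WT. The PIM1 and RRN6 blocks are neighbours, and the G1 libraries differed from that of WT by 0.0033 and 0.0063 in PIM1 and by -0.029 and -0.076 in RRN6, for orc2∆N200 and orc2-I194E. With the S libraries of orc2-I194E and WT exchanged, WT stood at -0.12 in the PIM1 block, -0.20 in RRN6 and 0.0066 in SEC18, so the signs for orc2∆N200 against WT were no longer opposite in PIM1 and RRN6.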

How the results depend on the processing

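Over 14 alternatives, 156 of 195 values stayed within the counting interval of the reported value or, for counts, within 1.5 times it, 35 did not, and 4 mutant minus WT differences changed sign. The 156 include SDs, hill and valley counts and arm differences of orc2∆N200, which no exchange could move. They also include 28 from the G1 exchange, which is no separate check of the labels. Of the 39 that moved or changed sign, 21 came with the S libraries of orc2-I194E and WT exchanged. The PYC2 block was then -0.0342 in orc2∆N200 and -0.315 in orc2-I194E relative to WT, and the RRN6 block 0.0751 and 0.363. Between orc2∆N200 and orc2-I194E, 9 blocks were higher and 2 lower. These comparisons under the exchanges were chosen after seeing the data. The SD was 0.190 in orc2-I194E and 0.119 in WT, and the left minus the right arm 0.158 and 0.0255. Blocks above and below WT numbered 0 and 0 in orc2∆N200 and 2 and 5 in orc2-I194E. Stretches above and below WT numbered 0 and 0 in orc2∆N200, and 1 lay above WT in orc2-I194E. The mean at WT hills, with sites called again, was 0.108 in orc2-I194E, and at WT valleys it was -0.180 in orc2∆N200, -0.195 in orc2-I194E and -0.224 in WT. With the G1 libraries exchanged, 2 blocks of orc2∆N200 and 1 stretch of orc2-I194E were below WT. The RRN6 block was then -0.288 in orc2∆N200 and -0.363 in orc2-I194E relative to WT. The left minus the right arm of orc2-I194E was 0.0255, within the counting interval of its labelled value. With the 3 G1 libraries summed, 1 block of orc2∆N200 and 1 stretch of orc2-I194E were below WT. The SD of the 21-kb mean was 0.112 in orc2∆N200, 0.106 in orc2-I194E and 0.172 in WT. A prominence of 0.1 gave 5 WT hills, and one of 0.3 gave 2 valleys in orc2∆N200 and 1 hill and 2 valleys in orc2-I194E. Blocks below WT in orc2-I194E numbered 5 with shares of the chromosome II interior and 5 with blocks shifted by 10 kb. At a limit of 0.10, 7 blocks were below WT in orc2∆N200, and 10 above and 6 below in orc2-I194E. The cause of these moves was not tested. No paired analysis was possible because each group has 1 library, so replicates could not be left out either, and counting intervals leave out the spread between cultures.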

Other observations

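Within the range of the rule, 10 bins had no count listed in any library and were no members. They lay between 30001 and 35000, at the retrotransposon gene YBL100W-B, and at 259001 to 266000, at the retrotransposon gene YBR012W-B and beside YBR013C. Of the 6 members that did not pass the filter, 2 were in the first of these stretches. The other bins lay at RPL4A, TEF2, YNCB0017C and PYC2, with 8 to 77 counts in every library. The genes RPL4A, TEF2 and PYC2 each have a close paralog, and how the authors counted reads that match both copies is not given in the sources used here.

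Genes had no common direction relative to the 6 WT slopes between the UBP14 and YBR225W valleys of the right arm. Slopes elsewhere on the chromosome were not counted. Of 166 protein-coding genes centred between neighbouring WT hills and valleys, 83 (50.0%) were transcribed from the hill side toward the valley side. The share differed between slopes, from 18 of 25 genes between UBP14 and MIS1 to 7 of 19 between MIS1 and EXO84.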
